A study of Mus musculus and Homo sapiens with 176 samples.

Results

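Gabrb1, Gabrb2, Gabrg1, Gabrg3 and Gabrd encode beta, gamma and delta subunits of the GABA-A receptor. They were taken by symbol from tables of nuclear RNA, and each was found as 1 feature, so that the 5 genes are 5 of 24854 features listed. RNA was sequenced from nuclei of the cerebellum and of the prefrontal cortex (PFC) of 1 C57BL/6 mouse aged 8-10 weeks, in a study set up to compare neuronal with glial nuclei in both regions. The sort used NeuN, a nuclear protein of most neurons and the product of Rbfox3. The 4 groups were cerebellum NeuN+, cerebellum NeuN-, PFC NeuN+ and PFC NeuN-, with 2 libraries each and no genetic change or treatment named in the labels. All 8 libraries came from the same animal, called mouse 3, so p-values speak of library-to-library spread, possibly technical, and not of spread between mice. The tissue handling given in the labels is for cerebellum: frozen tissue was homogenized, nuclei were spun through sucrose, and they were stained with a fluorescent NeuN antibody before sorting.

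GABA-A receptors are chloride channels built from a ring of subunits, most often alpha and beta subunits joined by a gamma or a delta subunit. The beta subunits help to form the site that binds GABA, gamma subunits are typical of receptors at synapses, and the delta subunit is typical of receptors outside synapses that carry a tonic current. In cerebellar granule cells the delta subunit is known to assemble with the alpha6 subunit, and in the forebrain with alpha4. The sets of genes lie in clusters that hold alpha, beta and gamma genes side by side, whereas Gabrd stands apart from them.

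The values are FPKM, fragments set against transcript length and the mapped fragments of the library, as the authors deposited them. FPKM is per length, so levels of different genes can be set side by side within a library. The lengths rest on an annotation that was not given. The libraries differed in their summed FPKM, so comparisons between libraries also depend on scaling. In bulk nuclei, fewer cells of a type and less RNA per cell cannot be told apart. For tests, each library was scaled to a common median ratio, and limma was run on log2(scaled FPKM + 1) over the 14376 features that reached 1 FPKM in 2 or more libraries. All 5 genes passed that filter, Gabrg1 only through PFC NeuN- and Gabrg3 only through PFC. Calls for these genes that set those groups against others are therefore not independent of the filter. A gene is said to have changed where its Benjamini-Hochberg adjusted p was under 0.05. Folds are on the log2(scaled FPKM + 1) scale, which understates the change of low genes.

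A library held 11256 to 12494 features at or above 1 FPKM, and replicate libraries shared 0 identical values above 0. The FPKM summed to 414230 and 426851 in PFC NeuN- and to between 289350 and 307198 in the other libraries. Scaling therefore matters most for comparisons that use PFC NeuN-: the median log2 change of all features between PFC NeuN+ and PFC NeuN- was -0.01 with the scaling used, -0.19 unscaled, 0.14 with a common sum and 0.08 after quantile scaling. The share of changes that were higher in PFC NeuN+ was 48.2%, 36%, 59.9% and 55.4% under these scalings, in that order. For cerebellum NeuN- against PFC NeuN- the median was 0.02, -0.13, 0.26 and 0.07, and the share higher was 51%, 42.6%, 62.1% and 53.2%. Rbfox3 stood at 123 and 119 FPKM in cerebellum NeuN+, 33.3 and 34.5 FPKM in cerebellum NeuN-, 16.2 and 15.7 FPKM in PFC NeuN+, and 14.2 and 12.3 FPKM in PFC NeuN-. General neuronal messages were not lower in sum in PFC NeuN- than in PFC NeuN+. The summed scaled FPKM of 19 such genes, Rbfox3 among them, ran from 2049 to 2080 in PFC NeuN+ and from 2456 to 2580 in PFC NeuN-. Snap25 alone stood at 1016 and 1011 scaled FPKM in PFC NeuN+ and at 1373 and 1476 in PFC NeuN-. In PFC NeuN+ 7 of the 19 were higher, 7 lower and 5 not passing the test, against 35% higher and 37.6% lower of all features. Unscaled, 7 were higher and 9 lower, with a common sum 9 and 5, and after quantile scaling 8 and 4. In cerebellum the sum over the 19 genes ran from 1875 to 1882 in NeuN+ and from 987 to 998 in NeuN-. There 16 of the 19 were higher and 1 lower in NeuN+, against 32.4% and 39.2% of all features. NeuN- is therefore used below as the name of a gate, not of a cell type.

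The gene starts of the chromosome 5 cluster are shown first, because its outer genes, Gabrg1 and Gabrb1, were each set apart in 1 group, and not the same one. Sequences are from RefSeq on GRCm38.p6 and give the 250 bases before a start, 5′ to 3′ on the strand of the gene, with each CpG in capitals. The expression tables use mm9, and no position was carried from one build to the other. RefSeq lists 2 starts for Gabrb1, at chr5:71657671-71657920 (plus strand) and chr5:71699682-71699931 (plus strand), and 1 for Gabrg1, at chr5:70842618-70842867 (minus strand).
Gabrb1, first start: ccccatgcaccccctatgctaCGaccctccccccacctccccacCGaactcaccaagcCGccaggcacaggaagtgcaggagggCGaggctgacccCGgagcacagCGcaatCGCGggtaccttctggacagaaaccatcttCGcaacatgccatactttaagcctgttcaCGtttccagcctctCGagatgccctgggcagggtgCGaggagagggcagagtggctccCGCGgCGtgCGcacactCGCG
Gabrb1, second start: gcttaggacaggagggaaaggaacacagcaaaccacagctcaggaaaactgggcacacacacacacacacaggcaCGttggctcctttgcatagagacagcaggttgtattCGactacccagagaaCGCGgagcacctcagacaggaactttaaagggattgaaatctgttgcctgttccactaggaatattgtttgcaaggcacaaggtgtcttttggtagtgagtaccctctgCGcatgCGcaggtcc
Gabrg1: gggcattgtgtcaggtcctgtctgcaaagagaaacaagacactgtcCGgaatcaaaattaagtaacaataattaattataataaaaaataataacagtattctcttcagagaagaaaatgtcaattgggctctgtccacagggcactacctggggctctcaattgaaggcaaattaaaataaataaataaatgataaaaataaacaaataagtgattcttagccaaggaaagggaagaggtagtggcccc
The Gabrb1 stretch at the first start held 18 CpG and 64.4% G or C, and 78.3% of 32841 mouse promoters held fewer CpG. The stretch at the second start held 6 CpG and 50.8% G or C, and the median promoter held 6 CpG and 52.4%. The Gabrg1 stretch held 1 CpG and 35.6% G or C, and 7.86% of promoters held fewer CpG.

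Among 7 starts listed for 4 of the genes, the other 4 belonged to Gabrb2 and Gabrg3, and Gabrd had no entry. The Gabrb2 start with a TATA match, at chr11:42420190-42420439 (plus strand, GRCm38.p6), is shown because it was the only one of the 7 with that match.
Gabrb2: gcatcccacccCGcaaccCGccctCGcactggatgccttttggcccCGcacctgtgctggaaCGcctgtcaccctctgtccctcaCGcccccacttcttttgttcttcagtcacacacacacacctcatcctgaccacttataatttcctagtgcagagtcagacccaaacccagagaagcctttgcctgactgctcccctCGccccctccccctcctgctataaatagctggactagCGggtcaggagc
It held 8 CpG, and its TATAAA ended 24 bases before the start. The 3 Gabrb2 starts held 8, 8 and 4 CpG and the Gabrg3 start 9. On both strands, 6 motifs were searched, and no match overlapped another: TATAAA (in 12.4% of all promoters), GGGCGG (32.7%), AACAAT (9.43%), CAGATG (14.4%), TGACGTCA (1.55%) and the palindromic NFI motif (0.0365%). GGGCGG was found in the first Gabrb2 and in the Gabrg3 stretch, and AACAAT in the Gabrg1 stretch and at the second Gabrb1 start. CAGATG, TGACGTCA and the NFI motif were in none of the 7 stretches. A match is a description of letters only.

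Gabrb1 encodes the beta1 subunit and spans chromosome 5, 72091255 to 72528483 on mm9. Its RNA was low in 1 of the 4 groups, cerebellum NeuN+, and high in the other groups. It measured 3.26 and 2.83 FPKM in cerebellum NeuN+, 121 and 120 FPKM in cerebellum NeuN-, 87.1 and 86.7 FPKM in PFC NeuN+, and 96.1 and 104 FPKM in PFC NeuN-. Both cerebellum NeuN+ libraries lay far below the other 6, with no overlap. On the scaled level it averaged 3.13 ± 0.328 in cerebellum NeuN+ and 124 ± 1.35 in cerebellum NeuN- (SD, n = 2 each), a log2 change of -4.92 ± 0.0705 (SE; limma adjusted p = 1.4e-07), or 30.3-fold lower. Against PFC NeuN+ the cerebellum NeuN+ level was 22.1-fold lower (log2 change -4.46, adjusted p = 6.3e-08). Between the NeuN- gates the order turned: the cerebellum was higher, by 1.41-fold (log2 change 0.49, adjusted p = 6.1e-04).

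In PFC the gates did not differ by the test for Gabrb1: scaled FPKM averaged 90 ± 0.326 in NeuN+ and 88.0 ± 6.27 in NeuN- (SD, n = 2 each), with a log2 change of 0.03 and a 95% interval from -0.14 to 0.20 (limma adjusted p = 0.69). This absence of a call rests on the scaling. Unscaled, the change was -0.20 (adjusted p = 0.026), close to the median of all features there, and it was 0.25 (adjusted p = 0.018) with a common sum and 0.29 (adjusted p = 0.0081) after quantile scaling. The difference between the gate changes of the regions was -4.96 ± 0.0998 as a log2 value (SE; limma adjusted p = 1.1e-06). By level, the order was cerebellum NeuN-, PFC NeuN+, PFC NeuN- and cerebellum NeuN+, and the PFC gates next to each other in that order did not pass the test. Gabrb1 lay above 98.5% of features in both cerebellum NeuN- libraries, and above 66.2% and 64.3% in cerebellum NeuN+.

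Many marker lists moved between the cerebellar gates too, where 39.2% of all features were lower and 32.4% higher in NeuN+. Of 19 oligodendrocyte genes, 19 were lower in cerebellum NeuN+ (sum 308 to 315 scaled FPKM in NeuN+ and 2344 to 2386 in NeuN-), and of 11 oligodendrocyte precursor genes tested 10 were lower and 1 higher (sum over 13 genes 23.8 to 24.4 in NeuN+ and 160 to 162 in NeuN-). Of 14 tested Bergmann glia genes, 14 were lower in cerebellum NeuN+, with a summed scaled FPKM of 352 to 355 in NeuN+ and 2000 to 2018 in NeuN-, and Npy2r was listed at 0 in NeuN+. Between the PFC gates 11 of these 14 were lower and 2 higher in NeuN+, where 37.6% of all features were lower and 35% higher. The sum of this list was 178 to 179 in PFC NeuN+ and 993 to 1023 in PFC NeuN-. Of 19 astrocyte genes, 18 were lower in cerebellum NeuN+ (sum 187 to 197 in NeuN+ and 1230 to 1251 in NeuN-). Genes of cerebellar inhibitory interneurons were lower in 6 of 9 and higher in 1 of 9, with a sum of 288 in both NeuN+ libraries and 434 to 441 in NeuN-; Pax2 was listed at 0 in NeuN+. Granule cell genes were higher in 15 of 15, with a sum of 1128 to 1135 in NeuN+ and 357 to 358 in NeuN-. The granule cell list holds Gabra6 and also Rbfox3, the gene of the sorting antigen. The part of these lists in the Gabrb1 difference was not tested.

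**Figure D1:**
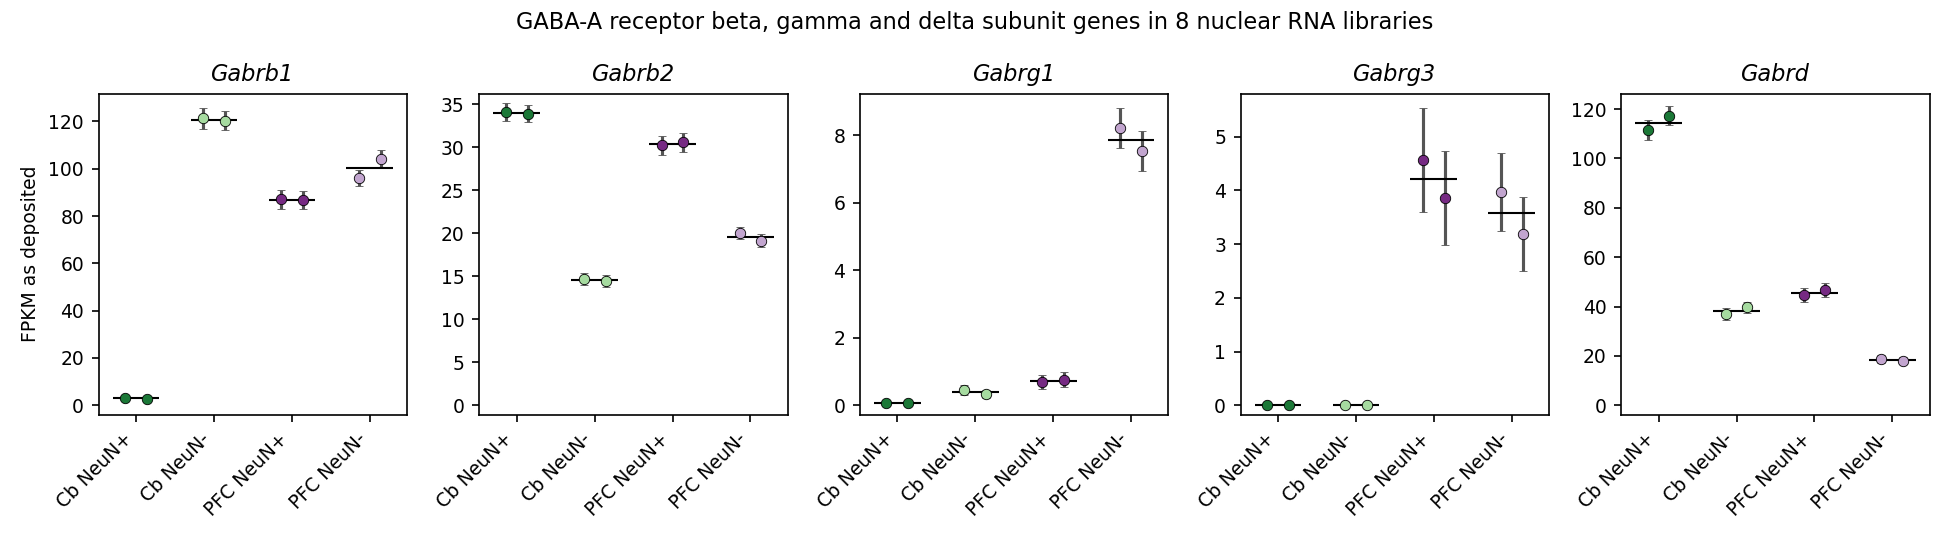
Deposited FPKM (vertical axis, linear, a separate scale for each gene) of the 5 genes in the 8 libraries, with cerebellum (Cb) groups left of PFC groups and NeuN+ left of NeuN-. Points are libraries, error bars are the confidence limits deposited with each value, and horizontal lines are group means. Gabrb1 is low only in Cb NeuN+ (3.26 and 2.83 FPKM), Gabrg1 is high only in PFC NeuN- (8.21 and 7.52 FPKM), Gabrg3 is listed at 0 in all 4 Cb libraries, and Gabrb2 and Gabrd are higher in NeuN+ than in NeuN- in both regions.

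Gabrb2 encodes the beta2 subunit, a widespread beta subunit of the brain, and lies on chromosome 11, 42233259 to 42446093 on mm9. It was higher in NeuN+ in both regions and differed little between the regions. It measured 34.1 and 33.9 FPKM in cerebellum NeuN+, 14.7 and 14.5 FPKM in cerebellum NeuN-, 30.3 and 30.6 FPKM in PFC NeuN+, and 20.1 and 19.1 FPKM in PFC NeuN-. All 4 NeuN+ libraries lay above all 4 NeuN- libraries. The rise in NeuN+ was 2.26-fold in cerebellum (log2 change 1.17 ± 0.0417, SE; limma adjusted p = 1.4e-06) and 1.79-fold in PFC (log2 change 0.84 ± 0.0417, SE; limma adjusted p = 5.4e-06). The gate changes differed by 0.34 between the regions (limma adjusted p = 0.0022), but with a common sum that difference was 0.13 (adjusted p = 0.083).

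Between the regions, Gabrb2 was 1.11-fold higher in cerebellum NeuN+ than in PFC NeuN+ (limma adjusted p = 0.016). The call was lost without replicate 1 of cerebellum NeuN+ (adjusted p = 0.058) or of PFC NeuN+ (adjusted p = 0.06). In NeuN- it was 1.14-fold lower in cerebellum (log2 change -0.19, limma adjusted p = 0.0047), and with a common sum the sign turned to 0.10 (adjusted p = 0.068). After quantile scaling the same change was -0.03 and did not pass. Gabrb2 was thus ordered cerebellum NeuN+, PFC NeuN+, PFC NeuN- and cerebellum NeuN- by scaled level; within each gate, the call between the regions changed under the settings just given.

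The ratio of Gabrb1 to Gabrb2 within a library does not depend on scaling, and both values are per length. It was 0.0955 and 0.0836 in cerebellum NeuN+, 8.27 and 8.33 in cerebellum NeuN-, 2.88 and 2.83 in PFC NeuN+, and 4.79 and 5.44 in PFC NeuN-. The groups did not overlap, and cerebellum NeuN+ was the one group in which Gabrb2 exceeded Gabrb1.

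Gabrg1 encodes the gamma1 subunit and lies on chromosome 5, 71142286 to 71233856 on mm9. It was above 1 FPKM in PFC NeuN- only. It measured 0.0650 and 0.0578 FPKM in cerebellum NeuN+, 0.451 and 0.324 FPKM in cerebellum NeuN-, 0.678 and 0.754 FPKM in PFC NeuN+, and 8.21 and 7.52 FPKM in PFC NeuN-. Both PFC NeuN- libraries stood well above the other 6, whose deposited confidence limits ran from 0.00610 to 0.973 FPKM. On the scaled level it averaged 0.742 ± 0.0554 in PFC NeuN+ and 6.90 ± 0.325 in PFC NeuN- (SD, n = 2 each), or 4.54-fold lower in NeuN+ (log2 change -2.18 ± 0.0756, SE; limma adjusted p = 1.2e-06). Cerebellum NeuN- was 5.66-fold lower than PFC NeuN- (log2 change -2.50, adjusted p = 6.7e-07). Gabrg1 passed the filter only through PFC NeuN-, so these calls are not independent of the filter.

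The remaining Gabrg1 differences were between low values. In cerebellum the gene was 1.31-fold lower in NeuN+ (log2 change -0.39, limma adjusted p = 0.003), and after quantile scaling the sign turned to 0.14 (adjusted p = 0.14). Cerebellum NeuN+ was 1.64-fold lower than PFC NeuN+ (log2 change -0.71, adjusted p = 1.4e-04). The gate changes of the regions differed by 1.79 on the log2 scale (limma adjusted p = 2.2e-05). By level the order was PFC NeuN-, PFC NeuN+, cerebellum NeuN- and cerebellum NeuN+, and PFC NeuN+ was not tested against cerebellum NeuN-.

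Several glial lists moved with Gabrg1 in PFC, where 37.6% of all features were lower and 35% higher in NeuN+. Between the NeuN- gates, 39% of all features were lower and 40.5% higher in cerebellum. There, microglia, oligodendrocyte precursor and oligodendrocyte genes were more often lower than higher. The 19 microglia genes summed to 31.2 to 35.6 scaled FPKM in cerebellum NeuN+ and 93.3 to 95.9 in cerebellum NeuN-. In PFC they summed to 63.7 to 69.4 in NeuN+ and 1099 to 1123 in NeuN-. Of 18 tested, 18 were lower in PFC NeuN+ than in PFC NeuN-, and 18 were lower in cerebellum NeuN- than in PFC NeuN-. Aif1, Fcrls and Ptprc were listed at 0 in cerebellum NeuN+ and C1qa in cerebellum NeuN-. Astrocyte genes were also lower in PFC NeuN+ in 19 of 19 (sum 98.5 to 99.5 in NeuN+ and 1373 to 1419 in NeuN-), but between the NeuN- gates 11 of 19 were higher and 5 lower in cerebellum. Oligodendrocyte genes were lower in PFC NeuN+ in 19 of 19 (sum 157 to 166 in NeuN+ and 3461 to 3564 in NeuN-), and between the NeuN- gates 11 of 19 were lower and 6 higher in cerebellum. Oligodendrocyte precursor genes summed to 23.8 to 24.4 in cerebellum NeuN+, 160 to 162 in cerebellum NeuN-, 32.7 to 33.5 in PFC NeuN+ and 294 to 296 in PFC NeuN-. Of 11 precursor genes tested, 9 were lower and 2 higher in PFC NeuN+ than in PFC NeuN-. Between the NeuN- gates 7 of the 11 were lower and 2 higher in cerebellum. With a common sum, 8 oligodendrocyte genes were lower and 8 higher between the NeuN- gates. The part of these cell types in the Gabrg1 values was not tested.

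Gabrg3 encodes the gamma3 subunit and spans chromosome 7, 63979612 to 64642241 on mm9. It was listed at 0 in all 4 cerebellar libraries, 2 of NeuN+ and 2 of NeuN-. It measured 4.56 and 3.85 FPKM in PFC NeuN+ and 3.97 and 3.19 FPKM in PFC NeuN-, so the PFC gates overlapped as deposited. An exact 0 in these tables can be a failed estimate, since Malat1, an abundant nuclear RNA, was listed at 0 in 6 libraries with a status other than OK, whereas each Gabrg3 value had the status OK. limma called Gabrg3 lower in cerebellum in NeuN+ (adjusted p = 1.7e-06) and in NeuN- (adjusted p = 3.8e-06), and no fold is given against a group listed at 0. Gabrg3 passed the filter only through PFC, so these calls are not independent of the filter.

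Within PFC, Gabrg3 averaged 4.36 ± 0.520 scaled FPKM in NeuN+ and 3.14 ± 0.435 in NeuN- (SD, n = 2 each), a 1.29-fold rise (log2 change 0.37 ± 0.100, SE; limma adjusted p = 0.014). That call was lost unscaled (log2 change 0.19), without replicate 1 of PFC NeuN+ (0.27) and without replicate 2 of PFC NeuN- (0.26). The difference between the gate changes of the regions, -0.37, did not pass (95% interval from -0.71 to -0.03, adjusted p = 0.051). Genes of cortical projection neurons summed to 13.6 to 13.7 scaled FPKM in cerebellum NeuN+, 11.3 to 11.8 in cerebellum NeuN-, 248 to 256 in PFC NeuN+ and 224 to 233 in PFC NeuN-. Tbr1 and Fezf2 of that list were listed at 0 in both cerebellar groups. Genes of cortical interneurons summed to 338 to 340 scaled FPKM in cerebellum NeuN+ and 535 to 538 in cerebellum NeuN-. In PFC they summed to 1277 to 1377 in NeuN+ and 1577 to 1712 in NeuN-. Dlx1, Dlx2 and Htr3a of the interneuron list were listed at 0 in both cerebellar groups. The part of these cells in the Gabrg3 values was not tested.

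Gabrd encodes the delta subunit and is the shortest of the 5 genes, on chromosome 4, 154759088 to 154772178 on mm9. It was higher in NeuN+ in both regions and higher in cerebellum in both gates, by similar factors. It measured 112 and 117 FPKM in cerebellum NeuN+, 37.0 and 39.7 FPKM in cerebellum NeuN-, 44.8 and 46.5 FPKM in PFC NeuN+, and 18.8 and 18.1 FPKM in PFC NeuN-. The 4 groups did not overlap, and the cerebellum NeuN+ libraries were the highest. In NeuN+ it was 2.94-fold higher than in NeuN- in cerebellum (log2 change 1.55 ± 0.0496, SE; limma adjusted p = 1e-06) and 2.81-fold higher in PFC (log2 change 1.49, limma adjusted p = 1.1e-06). Cerebellum exceeded PFC by 2.45-fold in NeuN+ (limma adjusted p = 1.2e-06) and by 2.35-fold in NeuN- (limma adjusted p = 1.8e-06).

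The gate change of Gabrd did not differ between the regions by the test, with a log2 difference of 0.06 and a 95% interval from -0.11 to 0.23 (limma adjusted p = 0.45). Unscaled, the difference was 0.29 and passed (adjusted p = 0.013), while the sign turned with a common sum (-0.14, adjusted p = 0.12) and after quantile scaling (-0.05, adjusted p = 0.55). Granule cell genes summed to 1128 to 1135 scaled FPKM in cerebellum NeuN+, 357 to 358 in cerebellum NeuN-, 55.1 to 56.6 in PFC NeuN+ and 59.0 to 61.1 in PFC NeuN-. That list holds Gabra6 and Rbfox3, so its sum is not separate from the Gabra6 values that follow. The part of the granule cell genes in the cerebellar Gabrd values was not tested. Gabra6, which encodes the alpha6 partner of delta in granule cells, measured 241 and 248 FPKM in cerebellum NeuN+ and 47.0 and 47.1 FPKM in cerebellum NeuN-, was listed at 0 in both PFC NeuN+ libraries, and measured 0.234 and 0.615 FPKM in PFC NeuN-. Gabra4, the alpha4 gene, measured 0.470 and 0.633 FPKM in cerebellum NeuN+, 3.37 and 3.55 FPKM in cerebellum NeuN-, 10.4 and 11.04 FPKM in PFC NeuN+, and 10.6 and 9.83 FPKM in PFC NeuN-. Gabra6 was thus high where Gabrd was highest, and Gabra4 was lowest there.

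Of the summed FPKM of the 5 genes, Gabrd made up 75.5% ± 0.892 in cerebellum NeuN+, 22.0% ± 0.980 in cerebellum NeuN-, 27.2% ± 0.603 in PFC NeuN+ and 12.3% ± 0.627 in PFC NeuN- (SD, n = 2 each). Gabrb1 made up 2.01% ± 0.246 in cerebellum NeuN+, 69.4% ± 0.795 in cerebellum NeuN-, 51.7% ± 0.386 in PFC NeuN+ and 66.9% ± 2.23 in PFC NeuN-. Cerebellum NeuN+ was thus the one group in which Gabrd and not Gabrb1 had the largest share. Gabrb2 made up 22.5% ± 0.641, 8.36% ± 0.132, 18.1% ± 0.0615 and 13.1% ± 0.739 in the same order of groups. Gabrg1 made up 5.26% ± 0.447 of the sum in PFC NeuN- and under 1% in each other group. The ratio of Gabrd to Gabrb2 was 3.27 and 3.46 in cerebellum NeuN+, 2.52 and 2.75 in cerebellum NeuN-, 1.48 and 1.52 in PFC NeuN+, and 0.937 and 0.944 in PFC NeuN-. Nuclear FPKM gives no count of receptors at the membrane.

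**Figure D2:**
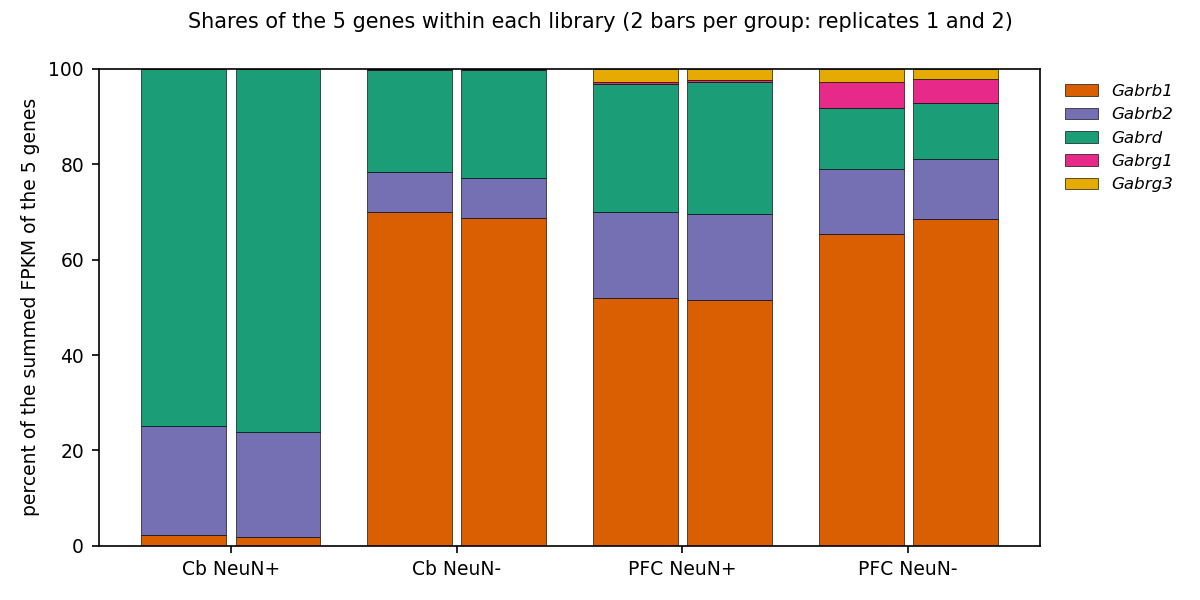
Share of each of the 5 genes (vertical axis, percent) in their summed FPKM, with 1 bar for each library and groups ordered from cerebellum (Cb) NeuN+ to PFC NeuN-. Gabrd takes 75.5% of the sum in Cb NeuN+, and Gabrb1 takes 69.4% in Cb NeuN-, 51.7% in PFC NeuN+ and 66.9% in PFC NeuN-.

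Across comparisons, the count of the 5 genes that changed was close to the share of all features that changed. In cerebellum 4 changed between the gates (Gabrb2 and Gabrd higher, Gabrb1 and Gabrg1 lower in NeuN+), where 71.6% of all 14376 features did, 32.4% higher and 39.2% lower. In PFC 4 changed (Gabrb2, Gabrg3 and Gabrd higher, Gabrg1 lower in NeuN+), against 72.6% of features, 35% higher and 37.6% lower. Between the regions all 5 changed in NeuN+, with Gabrb2 and Gabrd higher and the other 3 lower in cerebellum, against 77.2% of features, 36.5% higher and 40.7% lower. In NeuN- all 5 changed too, with Gabrb1 and Gabrd higher and the other 3 lower in cerebellum, against 79.4% of features, 40.5% higher and 39% lower. The gate change differed between the regions for 3 of the 5 (Gabrb2 and Gabrg1 more positive, Gabrb1 more negative in cerebellum), against 70.1% of features, 33.1% higher and 37% lower. The median log2 change of the 5 genes was 0.00, 0.37, -0.71, -0.19 and 0.06 in these comparisons, beside -0.04, -0.01, -0.03, 0.02 and -0.06 over all features tested. The comparisons share groups, so their counts are not independent.

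**Figure D3:**
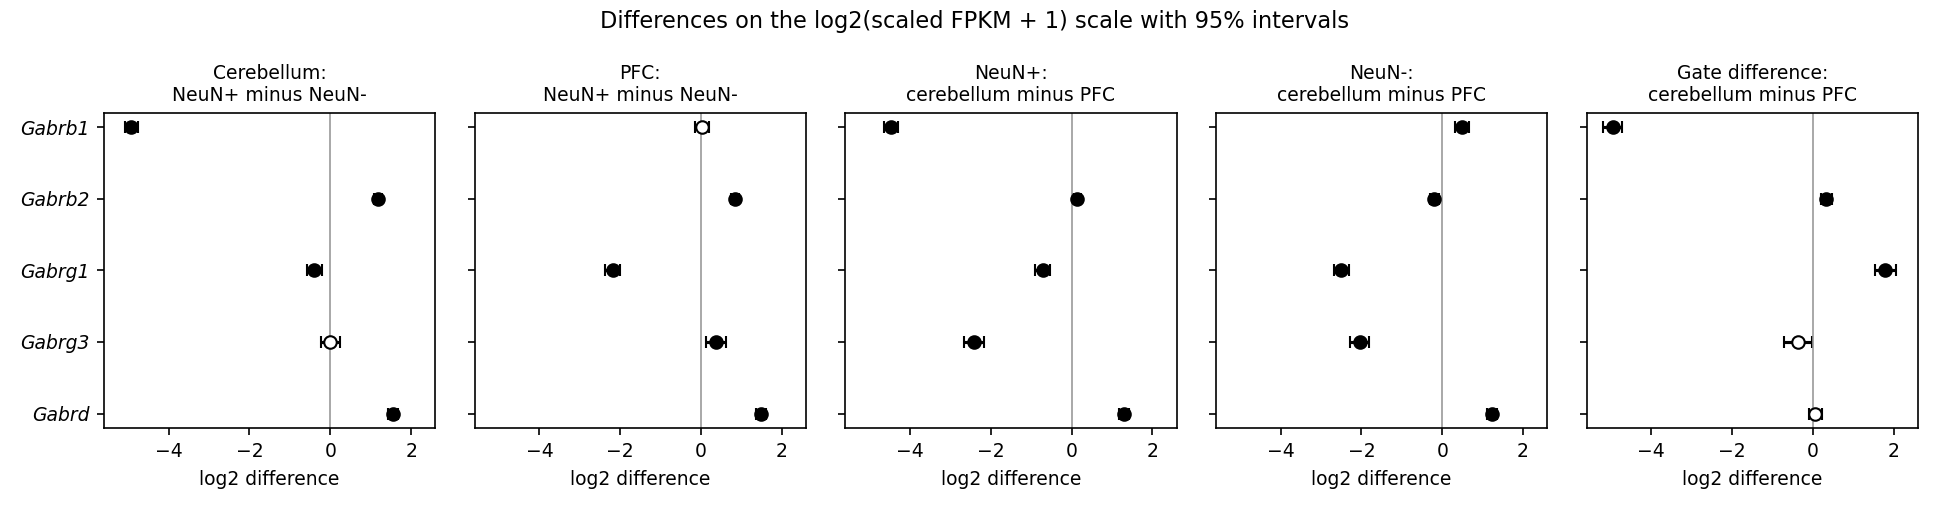
Differences on the log2(scaled FPKM + 1) scale (horizontal axis) for the 5 genes in the 5 comparisons, with 95% limma intervals; filled points passed an adjusted p of 0.05 and open points did not. Gabrb1 lies at -4.92 for the cerebellar gate and at 0.03 for the PFC gate, and Gabrd lies at 1.55 and 1.49. Gabrg3 in the cerebellar comparison stands at 0 because both groups are listed at 0, and its points against PFC give no fold.

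The 4 genes of the chromosome 5 cluster lie in the order Gabrg1, Gabra2, Gabra4, Gabrb1, with gaps of 118.439, 473.884 and 41.707 kb on mm9. All 4 were lower in cerebellum NeuN+ than in cerebellum NeuN-, except that Gabrg1 turned after quantile scaling, and all 4 were lower there than in PFC NeuN+. Gabra2, the alpha2 gene, measured 0.499 and 0.887 FPKM in cerebellum NeuN+, 6.18 and 4.53 FPKM in cerebellum NeuN-, 6.61 and 7.24 FPKM in PFC NeuN+, and 5.09 and 5.28 FPKM in PFC NeuN-. It fell 3.79-fold in cerebellum NeuN+ (limma adjusted p = 5e-05), and Gabra4 fell 2.91-fold (limma adjusted p = 5.9e-06). In PFC the cluster split: Gabra2 was 1.47-fold higher (adjusted p = 0.017) and Gabra4 1.21-fold higher (adjusted p = 0.016) in NeuN+, Gabrb1 did not pass, and Gabrg1 was lower. Unscaled, neither alpha gene passed (log2 change 0.36, adjusted p = 0.078 for Gabra2; 0.06, adjusted p = 0.5 for Gabra4). The levels differed widely within the cluster: in cerebellum NeuN- the scaled means were 0.398 for Gabrg1, 5.50 for Gabra2, 3.55 for Gabra4 and 124 for Gabrb1.

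On chromosome 11, Gabra6 lies 98.684 kb before Gabrb2 on mm9. Both were higher in cerebellum NeuN+ than in NeuN-, Gabra6 by 5.11-fold (limma adjusted p = 4.2e-06). In PFC, where Gabrb2 was at 19.1 to 30.6 FPKM, Gabra6 stayed below 1 FPKM. On chromosome 7, Gabrg3 and Gabra5, the alpha5 gene, lie 20.797 kb apart. Gabra5 measured at most 0.0261 FPKM in a cerebellar library, 27.5 and 27.4 FPKM in PFC NeuN+, and 14.5 and 15.5 FPKM in PFC NeuN-. Both genes were thus at or near 0 throughout the cerebellum. In PFC NeuN+ Gabra5 was 2.08-fold higher than in PFC NeuN- (limma adjusted p = 1.7e-05).

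**Figure D4:**
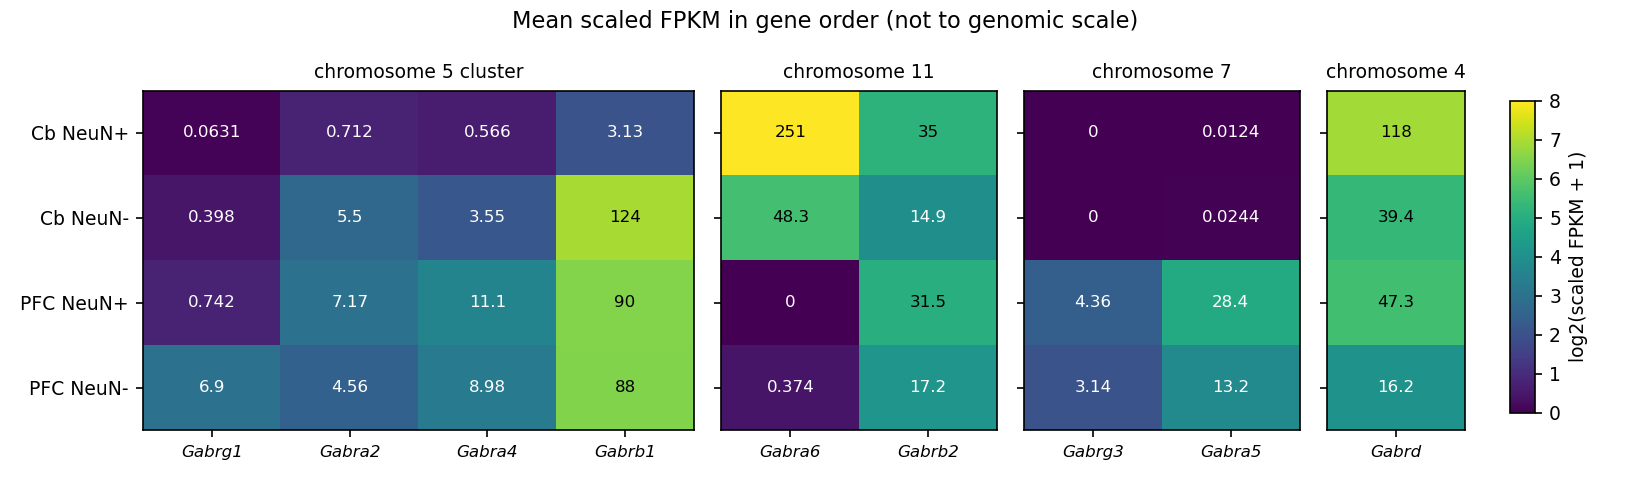
Mean scaled FPKM of the 4 genes of the chromosome 5 cluster in their order, of Gabra6 and Gabrb2, of Gabrg3 and Gabra5, and of Gabrd, in the 4 groups (rows, Cb for cerebellum), with colour on the log2(scaled FPKM + 1) scale and the mean printed in each cell. All 4 chromosome 5 genes are lowest in Cb NeuN+ (0.0631, 0.712, 0.566 and 3.13), and Gabrg3 and Gabra5 are at or near 0 in both Cb rows.

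The summed scaled FPKM of the 5 genes ran from 154 to 158 in cerebellum NeuN+, was 179 in both cerebellum NeuN- libraries, and ran from 173 to 174 in PFC NeuN+ and from 128 to 135 in PFC NeuN-. Gabra3, the alpha3 gene on chromosome X, measured 0.224 and 0.242 FPKM in cerebellum NeuN+, 0.295 and 0.269 FPKM in cerebellum NeuN-, 1.64 and 1.27 FPKM in PFC NeuN+, and 1.90 and 1.42 FPKM in PFC NeuN-. It was 2.02-fold lower in cerebellum NeuN+ than in PFC NeuN+ (limma adjusted p = 1.3e-04). Gabra3 passed the filter only through PFC, so this call is not independent of the filter.

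Genes that act beside the receptor were counted by list. Of 21 tested anchoring and trafficking genes, 10 were higher and 6 lower in cerebellum NeuN+ than in NeuN-, and 12 were higher and 5 lower in PFC NeuN+ than in NeuN- (8 and 8 unscaled); their median log2 changes were 0.12 and 0.26. Of all features, 71.6% changed in cerebellum and 72.6% in PFC between the gates, and the counts of this list and of the lists that follow are to be read against those shares. Iqsec3, an exchange factor bound to gephyrin at inhibitory synapses, measured 3.02 and 2.36 FPKM in cerebellum NeuN+, 4.54 and 5.12 FPKM in cerebellum NeuN-, 7.92 and 7.35 FPKM in PFC NeuN+, and 1.67 and 1.35 FPKM in PFC NeuN-. Its gate change was the most different between the regions in this list, at -2.61 on the log2 scale (limma adjusted p = 2.6e-05). Dmd, which encodes dystrophin, was lower in cerebellum NeuN+ (1.19 and 1.14 FPKM) than in PFC NeuN+ (6.73 and 7.08 FPKM; log2 change -1.89, adjusted p = 1.4e-06). Plcl2, which encodes a relative of the GABA-A receptor binding protein PRIP1, was lower in cerebellum NeuN- (1.17 and 1.11 FPKM) than in PFC NeuN- (7.83 and 8.11 FPKM; log2 change -1.88, adjusted p = 4e-06).

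Of 8 tested genes of GABA synthesis, transport and breakdown, 7 were lower and 0 higher in cerebellum NeuN+ than in NeuN- (median log2 change -1.27), where 39.2% of all features were lower and 32.4% higher. In PFC 5 were lower and 2 higher in NeuN+ (median -0.44), where 37.6% of all features were lower and 35% higher, and with a common sum 4 were lower and 3 higher (median -0.25). Slc6a13, the transporter GAT2 of meninges, was listed at 0 in both cerebellum NeuN+ libraries and measured 26.4 and 27.7 FPKM in cerebellum NeuN-. Gad2, which encodes the GABA-making enzyme GAD65, measured 6.04 and 6.46 FPKM in cerebellum NeuN+, 12.6 and 11.9 FPKM in cerebellum NeuN-, 13.9 and 14.4 FPKM in PFC NeuN+, and 7.13 and 6.55 FPKM in PFC NeuN-. Its gate change was negative in cerebellum and positive in PFC, with a difference of -2.04 (limma adjusted p = 8.3e-06). Meningeal fibroblast genes, a list that holds Slc6a13, summed to 0.341 to 0.346 scaled FPKM in cerebellum NeuN+, 45.5 to 45.8 in cerebellum NeuN-, 0.871 to 1.09 in PFC NeuN+ and 27.8 to 31.3 in PFC NeuN-. Their part in the transporter values was not tested.

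Of 5 genes of the metabotropic GABA-B receptor and its KCTD subunits, 2 were higher and 2 lower in NeuN+ in each region. Of 6 chloride transport genes, 3 were higher and 3 lower in cerebellum NeuN+, and 4 were higher and 2 lower in PFC NeuN+. Clcn2, the chloride channel ClC-2, measured 33.1 and 31.7 FPKM in cerebellum NeuN- and 11.5 and 12.6 FPKM in PFC NeuN- (log2 change 1.56, limma adjusted p = 1.8e-06). Neurosteroids act on receptors with delta subunits, and of 9 genes of their synthesis 4 were tested, of which 2 were higher and 2 lower in cerebellum NeuN+ and 2 higher and 1 lower in PFC NeuN+. Tspo, a protein of the outer mitochondrial membrane linked to steroid synthesis and known as a microglial marker, was listed at 0 in both PFC NeuN+ libraries and measured 6.91 and 5.95 FPKM in PFC NeuN-. It measured 3.36 and 2.02 FPKM in cerebellum NeuN+ and 3.74 and 4.27 FPKM in cerebellum NeuN-.

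The 3 features most like each gene were ranked by Pearson r of log2(scaled FPKM + 1) over the 8 libraries, among 5995 features. The 8 points are 4 pairs of replicate libraries, so r describes a pattern over 4 groups. For Gabrb1 they were Bcat1 (r = 0.996), Plk3 and Ttpal, and for Gabrb2 they were Tbc1d25 (r = 0.995), Cdyl2 and Mapk11. For Gabrg1 they included Fcrls (r = 0.9955), which was in the microglia list, and Lamp2. For Gabrg3 they were Cpne5 (r = 0.999), Tbr1 and Fezf2, and the last pair were in the cortical projection neuron list. For Gabrd they were Srrm3 (r = 0.999), Camkk2 and Atp9a.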

How the data were processed

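The authors deposited 1 gene table per library with FPKM and confidence limits, per the file headers. For upstream steps, Cufflinks, Bismark, Bowtie 1.1.1, TopHat2 2.1.1 and Trim Galore 0.3.7 are listed, with the build mm9, per the submitters' processing notes. Not given in the sources used here are the role of each tool, the annotation and the handling of strand. FPKM is already divided by library size and length, so no count test was run, and sequencing depth is unknown; precision at low values is given by the deposited confidence limits. Positions are those of the tables, 1-based. The 8 RNA libraries of 176 samples in the series were used, and the chromatin samples were not analysed here. The labels name no batch.

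FPKM were multiplied by median-of-ratios factors (0.869 to 1.04, over 9109 features). Features with at least 1 FPKM in 2 libraries were kept. The limma package (3.58.1, R 4.3.3) fitted group means to log2(scaled FPKM + 1), using a variance trend; 4 residual degrees of freedom remained. Tests were two-sided, with Benjamini-Hochberg adjustment over all 14376 features within a comparison and a threshold of 0.05. The procedure was tested on simulated data. Gene members and lists were chosen with earlier results of these data known. Named genes, of which some are not reported here, were the 5 members, the other subunit genes, up to 3 called genes per GABA list by size of change with a group mean of at least 5 scaled FPKM, Rbfox3, leading markers, and the 3 features most like each member. Promoters were matched by symbol in a RefSeq table.

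Alternatives were pseudocounts of 0.1 and 5, a filter of 5 FPKM, no filter, unscaled values, a common sum, quantile scaling, no variance trend, only the groups compared, a replicate block, and leaving out each library.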

Additional observations from a re-analysis of the deposited data

Results flagged for a closer look

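The gate change, NeuN+ minus NeuN- on the log2(scaled FPKM + 1) scale, differed between cerebellum and PFC by limma's test of the difference itself for 3 of the 5 genes, against 70.1% of all features tested. For Gabrb1 the difference, cerebellum minus PFC, was -4.96, with a gate change of -4.92 in cerebellum and 0.03 in PFC. For Gabrg1 it was 1.79, with -0.39 in cerebellum and -2.18 in PFC, and Gabrg1 passed the filter only through PFC NeuN-. For Gabrb2 it was 0.34, with 1.17 in cerebellum and 0.84 in PFC, and it did not pass with a common sum. No group had the 4 libraries needed to test for a library that stands apart.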

How the results depend on the processing

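Of 440 recomputed log2 changes of the 5 genes, 417 kept their direction and their side of the threshold and 6 turned in sign. Of the others, 8 lost a call and 9 gained one. The 6 that turned were counted apart, whether or not their call changed too. Direction and side of the threshold were kept under each alternative run by 17 of 25 results. The sign turned for Gabrb1 between the PFC gates unscaled (-0.20) and without replicate 1 of PFC NeuN- (-0.03), for the Gabrd gate difference between the regions with a common sum (-0.14) and after quantile scaling (-0.05), for Gabrb2 in cerebellum NeuN- against PFC NeuN- with a common sum (0.10), and for Gabrg1 between the cerebellar gates after quantile scaling (0.14); the cause was not tested. The 89 recomputed counts of changed genes stayed within 1.5 times their value, a wide limit for 5 genes, and directions moved within it. The gate change was more positive in cerebellum for 2 genes and more negative for 1. With a common sum these counts were 1 and 2, and unscaled 3 and 1. Between the PFC gates, 3 genes higher and 1 lower in NeuN+ became 2 and 2 unscaled. The gate change of Gabrb1 in cerebellum ran from -5.27 to -3.99 and that of Gabrd from 1.47 to 1.60. The stricter filter of 5 FPKM removed Gabrg3, so it gave no value there. With the replicate number as a block, the gate changes of 4 of the 5 genes differed between the regions. Gabrg3 was added, at -0.37 (limma adjusted p = 0.042). With the block 9948 of all features passed that test, against 10079 without it. Deviations of same-numbered libraries had correlations from -0.045 to 0.034, so no large effect shared by number was seen. The labels do not say what same-numbered libraries share. Depth is unknown, all libraries come from 1 animal, and exact zeros can be failed estimates.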

Other observations

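Gabrr2, which encodes a rho subunit best known from the retina, measured 4.72 and 5.04 FPKM in cerebellum NeuN+, 13.6 and 13.6 FPKM in cerebellum NeuN- and 10.3 and 10.6 FPKM in PFC NeuN-, and was listed at 0 in both PFC NeuN+ libraries. It was 2.48-fold lower in cerebellum NeuN+ than in cerebellum NeuN- (limma adjusted p = 4.9e-06), and both NeuN+ groups lay below both NeuN- groups. Its neighbour Gabrr1, another rho gene 36.690 kb away on mm9, was highest in PFC NeuN+, at 1.12 and 1.16 FPKM, against 0.344 and 0.274 FPKM in PFC NeuN- (1.71-fold higher, limma adjusted p = 4.4e-05). Gabrr1 passed the filter only through PFC NeuN+, so this call is not independent of the filter. Gabrp and Gabrr3 were listed at 0 in all 8 libraries. Gabre, the epsilon gene, and Gabrq, the theta gene, stayed at or below 0.242 and 0.333 FPKM.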
